A study of Arabidopsis thaliana with 5 samples.

Results

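The EXORDIUM family genes EXO (AT4G08950), EXL1 (AT1G35140), EXL2 (AT5G64260), EXL3 (AT5G51550), EXL4 (AT5G09440) and EXL5 (AT2G17230) of Arabidopsis are the relatives of the rice PHI-1 gene examined here. They were taken by locus identifier, as 6 of the 33056 annotated genes of chromosomes 1 to 5, and the peaks within 2 kb of each gene were collected from ChIP-Seq of SCL28 and AtSMOS1. ChIP-Seq had been performed on chromatin of whole seedlings in the Col-0 background, grown on plates. The labels give long days and the Methods of the study give continuous light, so the light regime is uncertain. The groups were an AtSMOS1-GFP line and an SCL28-GFP line, with 2 replicates of anti-GFP immunoprecipitation for each, and total chromatin of wild-type seedlings as the input, with 1 sample. AtSMOS1-GFP was driven by the AtSMOS1 promoter. For SCL28-GFP, the Results of the study and the legend of its supplementary ChIP-Seq profiles name the RPS5A promoter. That promoter is active in dividing cells, and the study also used it to overexpress SCL28. The Methods name the SCL28 promoter instead. The peaks that bear on this are given with the check of the labels. No immunoprecipitation of wild-type chromatin with the same antibody was analyzed here. The study describes the replicates as biological, and there are 2 of them for each protein.

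EXO encodes a secreted protein of the cell wall space that promotes cell expansion and shoot growth, and its transcript responds to brassinosteroids. EXL1 is the relative known for growth under carbon and energy starvation, and the founding PHI-1 gene was found as phosphate-induced in tobacco cells. In rice, the AP2-type factor SMOS1 acts with a GRAS protein in cell expansion and regulates a PHI-1 gene of this family. AtSMOS1 and the GRAS protein SCL28 are the Arabidopsis proteins profiled here, and the comparison asks where they lie at the Arabidopsis relatives of that rice gene.

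AtSMOS1 peaks were found within 2 kb of EXO, EXL1, EXL2, EXL3 and EXL5 in both replicates, 5 of the 6 genes against 20.7% of all annotated genes, and at EXL4 in replicate 1 alone. SCL28 had a peak at EXO in both replicates, 1 of the 6 genes against 2.06% of all, and at none of the other 5 genes. EXO was therefore the 1 gene of the family with both proteins, and there the SCL28 summits lay upstream of the transcription start site (TSS), in peaks that overlapped AtSMOS1 peaks. Input peaks were found at EXL1, EXL2, EXL4 and EXL5, 4 of the 6 genes against 26.7% of all, and none of them overlapped an AtSMOS1 or SCL28 peak at these genes. The study's reporting summary names the input as the control for calling peaks. A lack of overlap with input peaks was therefore partly set by the calling, and is no result about these genes. Each peak is given with its fold enrichment, a ratio that the peak caller computed at the summit over its local background, and with the position of its summit from the TSS, negative when upstream.

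Upstream sequences of EXO, EXL1, EXL2 and EXL3 are shown because AtSMOS1 or SCL28 summits lay in them. The first covers the SCL28 summits of EXO, with a 12-bp motif that the study describes for both proteins in capitals. In the next 4, capitals run between the upstream summits of the 2 AtSMOS1 replicates that lay closest to each other. At EXL2 these leave out the higher replicate 1 summit, at -1166 (4.11), and use the one at -776 (3.24). They are read from TAIR10 in the direction of transcription of the gene, and no annotated gene lies in any of the 5 windows.
EXO distal, chr4:5739258-5739497, plus strand: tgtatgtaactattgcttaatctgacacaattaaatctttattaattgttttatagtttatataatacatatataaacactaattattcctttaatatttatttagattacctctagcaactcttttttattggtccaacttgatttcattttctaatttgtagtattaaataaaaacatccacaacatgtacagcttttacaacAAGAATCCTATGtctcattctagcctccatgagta
EXO proximal, chr4:5740019-5740218, plus strand: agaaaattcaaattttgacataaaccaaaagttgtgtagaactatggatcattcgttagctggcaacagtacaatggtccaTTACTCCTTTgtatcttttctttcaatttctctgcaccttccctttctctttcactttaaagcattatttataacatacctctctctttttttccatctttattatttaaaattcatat
EXL1 proximal, chr1:12851733-12851982, plus strand: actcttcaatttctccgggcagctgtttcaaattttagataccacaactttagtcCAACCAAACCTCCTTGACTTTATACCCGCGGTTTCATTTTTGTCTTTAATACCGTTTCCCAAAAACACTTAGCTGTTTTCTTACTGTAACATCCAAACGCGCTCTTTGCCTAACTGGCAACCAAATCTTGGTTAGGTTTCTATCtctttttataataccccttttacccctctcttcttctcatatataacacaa
EXL2 upstream, chr5:25702787-25702986, plus strand: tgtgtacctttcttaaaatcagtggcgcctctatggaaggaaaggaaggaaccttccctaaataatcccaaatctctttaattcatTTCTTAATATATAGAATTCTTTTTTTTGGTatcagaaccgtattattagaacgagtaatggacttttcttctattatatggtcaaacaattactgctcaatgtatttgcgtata
EXL3 upstream, chr5:20941403-20941602, minus strand: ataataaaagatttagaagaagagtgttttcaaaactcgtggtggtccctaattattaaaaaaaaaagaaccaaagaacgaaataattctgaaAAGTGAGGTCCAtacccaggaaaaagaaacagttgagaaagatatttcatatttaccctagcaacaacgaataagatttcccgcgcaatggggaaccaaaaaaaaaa

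The gene models are alike in structure. Each of the 6 genes has 1 annotated transcript without introns, and the coding sequences were 837 to 1092 bp long. EXO and EXL1 shared 70.3% of aligned coding bases, EXL2 and EXL4 shared 80.1%, and EXL3 and EXL5 shared 64.3%. The longest run of identical bases between any 2 coding sequences of the 6 genes was 24 bp, between EXL2 and EXL4.

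As a check of the labels, the AtSMOS1 gene carried a peak over its whole length in the AtSMOS1-GFP lists, with fold enrichments of 15.2 and 14.5. The SCL28-GFP lists held a peak of 2007 and 2003 bp over the SCL28 coding sequence (5.33 and 5.99) and a peak at RPS5A with its summit upstream of the TSS (7.20 and 5.70), and the AtSMOS1-GFP lists held no peak within 2 kb of RPS5A. The RPS5A peaks ran from -1462 and -1467 to +114 and +119 around its TSS, and the SCL28 peaks began at +772 and +744, so the SCL28-GFP lists held a peak over the RPS5A promoter and none over the SCL28 promoter. The SCL28-GFP lists also held a peak just upstream of the AtSMOS1 gene (10.2 and 10.1), and the AtSMOS1-GFP lists held a peak downstream of SCL28 (2.74 and 3.97). The names written inside the replicate 2 lists carry the other protein, for 6934 AtSMOS1 peaks and 396 SCL28 peaks. The lists were used as labelled. They hold 5438 and 6934 nuclear peaks for AtSMOS1, 488 and 396 for SCL28 and 5695 for the input. The depth behind a peak is unknown from these lists, which hold no counts.

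**Figure D1:**
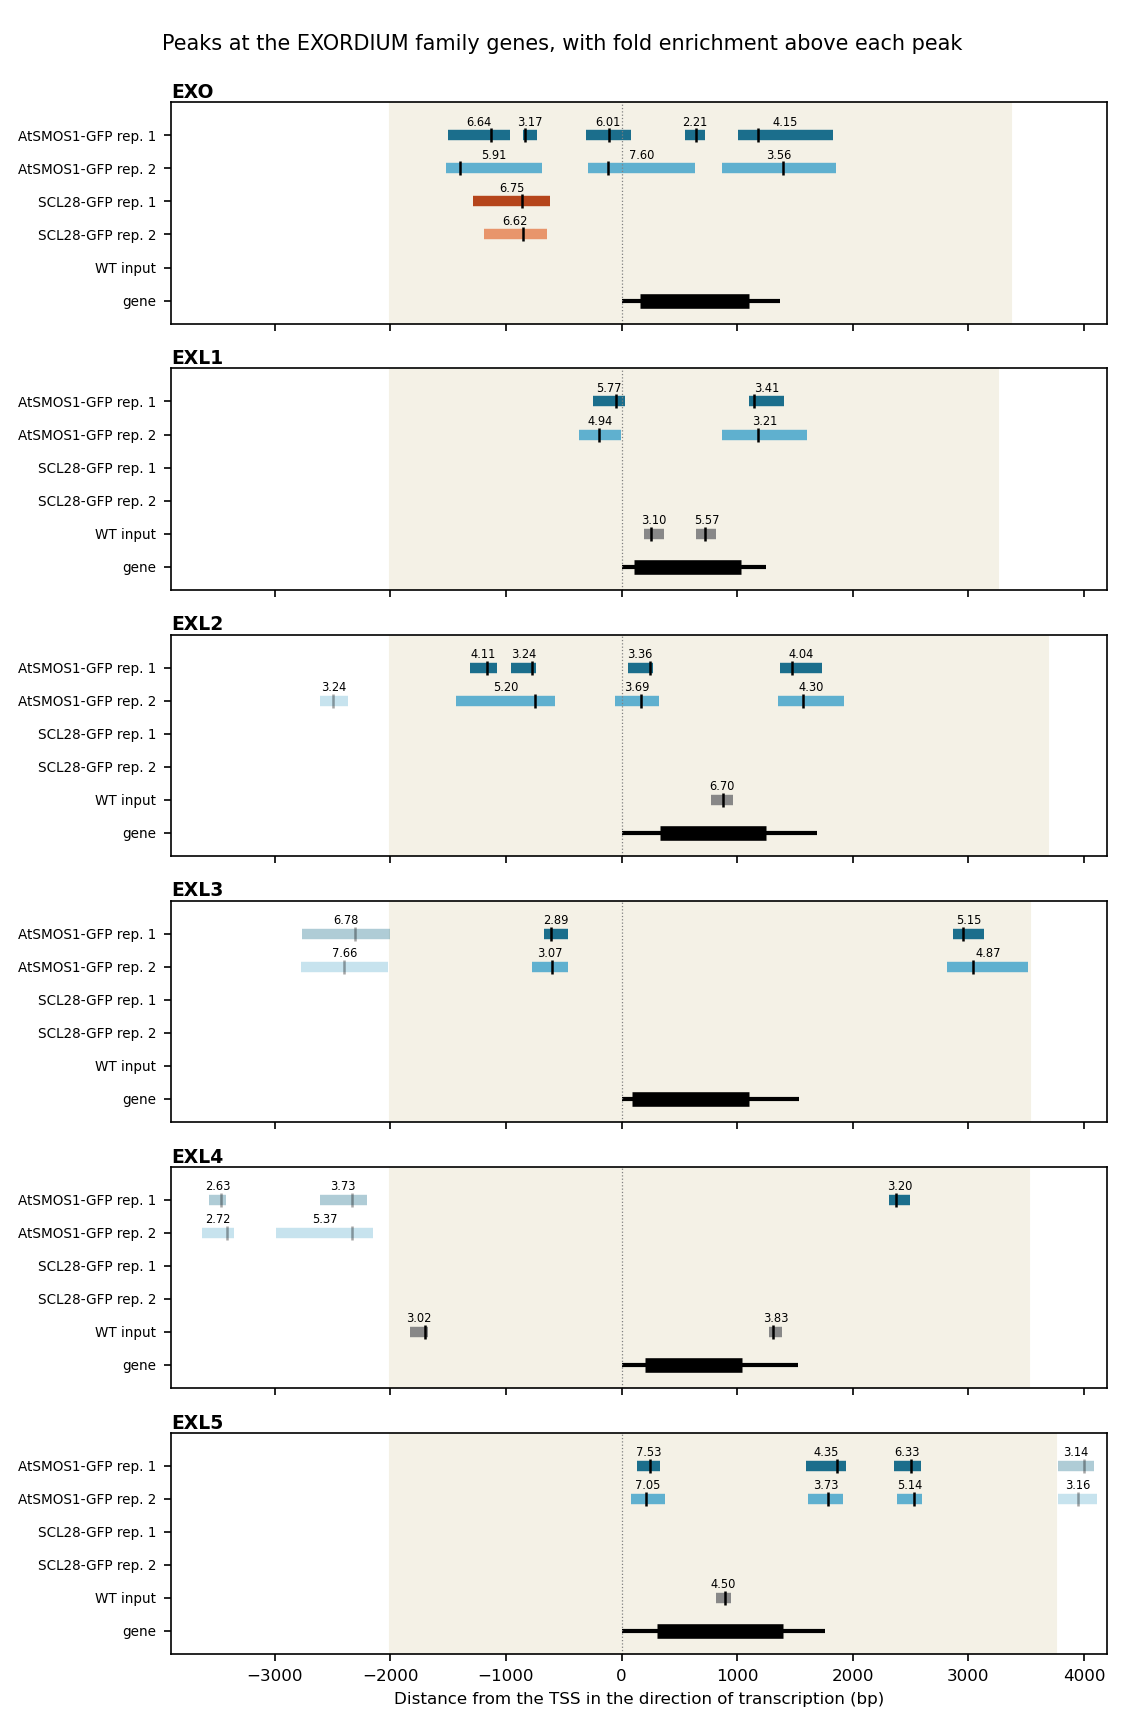
Peaks of the AtSMOS1-GFP, SCL28-GFP and WT input lists at the 6 genes, by distance from the TSS in bp. Bars span a peak, ticks mark the summit, the number above is the fold enrichment, shading marks the 2 kb around the gene and paler bars lie beyond it. The gene is drawn with a thick coding sequence and thin UTRs. Most AtSMOS1 summits lie outside the coding sequences, and the SCL28 bars lie upstream of EXO.

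EXO, at chr4:5740219-5741591 on the plus strand, had 5 AtSMOS1 peaks in replicate 1, the most of the family, and 3 in replicate 2, as did EXL2 and EXL5. Of the 33056 genes, 37 had 5 or more peaks in replicate 1, and 839 had 3 or more in replicate 2. The peaks formed 3 regions. In the distal upstream region, the summit lay at -1128 in replicate 1 with a fold enrichment of 6.64, and at -1400 in replicate 2 with 5.91. A further replicate 1 peak in the same region had its summit at -834, with a fold enrichment of 3.17. At the TSS the replicates were closest, with summits at -110 (6.01) in replicate 1 and -119 (7.60) in replicate 2. The replicate 2 peak there ran to +637 and also overlapped a weak replicate 1 peak inside the coding sequence, at +643 with a fold enrichment of 2.21. A 3′ region lay at the end of the gene. Its summit was in the 3′ UTR at +1184 (4.15) in replicate 1 and 26 bp past the transcript end at +1398 (3.56) in replicate 2. The distal and TSS regions were thus the higher ones in both replicates, although which of them was the highest differed between replicates. No input peak lay within 2 kb of EXO, and the nearest was 5907 bp from the gene.

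SCL28 had 1 peak at EXO in each replicate. The summit was at -861 in replicate 1, with a fold enrichment of 6.75 and a −log10 q of 32.7, and at -851 in replicate 2, with a fold enrichment of 6.62 and a −log10 q of 28.1. The 2 summits were 10 bp apart, and the mean fold enrichment was 6.68 ± 0.09 (SD, n = 2). These peaks ranked 83 of 488 and 78 of 396 in their lists. In replicate 1, the SCL28 peak shared 321 bp with the distal AtSMOS1 peak, whose summit was 267 bp away. It also contained the smaller AtSMOS1 peak of 123 bp, whose summit was 27 bp away. In replicate 2, it shared 505 bp with the single distal AtSMOS1 peak, and the summits were 549 bp apart. With 50% of both peaks required, the overlap was lost in replicate 1 and kept in replicate 2. The AtSMOS1 summit with the highest fold enrichment in the distal region therefore did not coincide with the SCL28 summit in either replicate. Over the whole lists, 59.2% of SCL28 peaks in replicate 1 and 66.9% in replicate 2 overlapped an AtSMOS1 peak.

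The 12-bp motif in the distal sequence lay from -756 to -745 on the minus strand, and reads CATAGGATTCTT on that strand. It was inside both SCL28 peaks and inside an AtSMOS1 peak of each replicate. Its centre was 83.5 bp from the AtSMOS1 summit at -834, and 110.5 and 100.5 bp from the SCL28 summits of replicates 1 and 2. It was the 1 exact match within 100 bp of any AtSMOS1 summit at the 6 genes in replicate 1, and there was none in replicate 2, where the nearest AtSMOS1 summit was 631.5 bp away, in a peak that did not contain the match. Windows of 200 bp centred on all summits held the motif at 1.05% and 0.923% of AtSMOS1 peaks, 20.9% and 25.3% of SCL28 peaks and 0.0702% of input peaks. The study derived this motif from the common peaks of both proteins in the same data. Its shares in these lists, and the match at EXO, are therefore not independent support. With whole peaks searched, a window chosen after the data were seen, the shares were 1.16% and 1.12% for AtSMOS1, 22.1% and 26.0% for SCL28 and 0.0527% for the input. EXO was then the 1 gene of the family with a match in either AtSMOS1 list. Both SCL28 peaks at EXO also held the match, and no other gene of the 6 had an SCL28 peak to search.

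**Figure D2:**
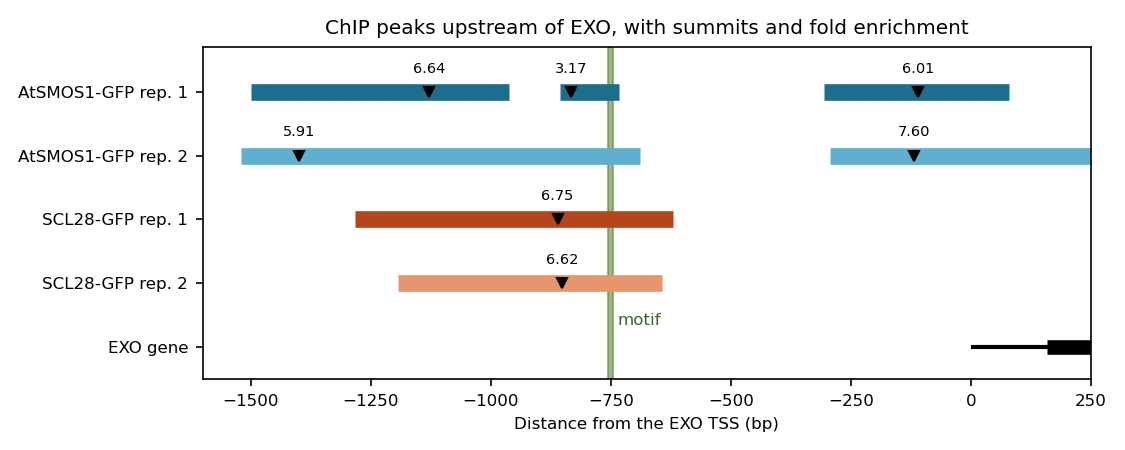
ChIP peaks upstream of EXO, by distance from the TSS in bp, with the fold enrichment above each summit (triangles) and the exact match to the motif as a vertical band. The SCL28 summits at -861 and -851 lie closest to the small AtSMOS1 peak of replicate 1 (3.17), and the band from -756 to -745 crosses an AtSMOS1 and an SCL28 peak in each replicate. The AtSMOS1 peaks at the TSS, at 6.01 and 7.60, have no SCL28 peak over them.

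EXL1, at chr1:12851983-12853235 on the plus strand, carries the symbol PHI-1 in RefSeq and is the closest to EXO in coding sequence among the 6 genes. It had an AtSMOS1 peak just before the TSS, with summits at -52 (5.77) in replicate 1 and -195 (4.94) in replicate 2. A second AtSMOS1 peak lay in the 3′ UTR, at +1150 (3.41) in replicate 1 and +1183 (3.21) in replicate 2. The TSS peak was thus the higher one in both replicates. The TSS and gene end positions resembled those of EXO, but EXL1 had no distal AtSMOS1 peak and no SCL28 peak. The nearest SCL28 peaks were 217845 and 225626 bp from the gene. The input had 2 peaks in the EXL1 coding sequence, with fold enrichments of 3.10 at +253 and 5.57 at +721, between the AtSMOS1 peaks and overlapping neither.

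EXL2, at chr5:25703649-25705339 on the plus strand, had AtSMOS1 peaks in 3 regions. Upstream, replicate 1 had 2 peaks, at -1166 (4.11) and -776 (3.24), and replicate 2 had 1 wide peak over both, at -747 (5.20). In the 5′ UTR, the summits were at +243 (3.36) in replicate 1 and +171 (3.69) in replicate 2. In the 3′ UTR, they were at +1474 (4.04) in replicate 1 and +1573 (4.30) in replicate 2. All 3 regions of EXL2 were higher in replicate 2, unlike most sites of the family. The 5′ UTR summits lay beside a G-box, the CACGTG element bound by bHLH and bZIP factors, at +168 to +173. It is shown with 10 bases on each side and the element in capitals.
EXL2 G-box, chr5:25703807-25703832, plus strand: cacatctctcCACGTGgcaatctttg
The centre of this element was 0.5 bp from the replicate 2 summit and 72.5 bp from the replicate 1 summit. A G-box was found within 100 bp of 14.0% and 15.0% of all AtSMOS1 summits, against 5.39% of input summits. The input peak of EXL2 lay inside the coding sequence at +876, with a fold enrichment of 6.70, and overlapped no AtSMOS1 peak.

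EXL3, at chr5:20939363-20940895 on the minus strand, had an AtSMOS1 peak upstream with low fold enrichment. The summits were at -614 (2.89) in replicate 1 and -603 (3.07) in replicate 2, 11 bp apart. The higher peak within 2 kb lay downstream, at +2957 (5.15) in replicate 1 and +3040 (4.87) in replicate 2. This downstream peak was nearer to LPA2 (AT5G51545), a gene for photosystem II assembly, than to EXL3. EXL3 had no input peak within 2 kb, and its nearest SCL28 peaks were 37099 and 37102 bp away.

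EXL5, at chr2:7494536-7496292 on the minus strand, had the highest mean of the family. In its 5′ UTR, the AtSMOS1 summits were at +246 (7.53) in replicate 1 and +209 (7.05) in replicate 2. Just past the gene end, they were at +1864 (4.35) in replicate 1 and +1787 (3.73) in replicate 2. Another peak followed at +2501 (6.33) in replicate 1 and +2526 (5.14) in replicate 2. EXL5 was thus the gene with AtSMOS1 peaks in both replicates and no summit upstream of the TSS. The input peak lay in the coding sequence, at +892 with a fold enrichment of 4.50.

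EXL4, at chr5:2938193-2939715 on the plus strand, had the highest coding identity with EXL2 and differed from it in its peaks. Within 2 kb there was 1 AtSMOS1 peak, at +2372 with a fold enrichment of 3.20, in replicate 1 alone. It lay inside the lncRNA gene AT5G09443. The input had peaks at -1698 (3.02) and in the 3′ UTR at +1314 (3.83). An AtSMOS1 peak of both replicates lay just beyond the window, with summits at -2330 (3.73) in replicate 1 and -2331 (5.37) in replicate 2. Its edges were 2203 and 2150 bp from EXL4, and it was nearer to AT5G09430 in both replicates.

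The 2 kb limit decided some of these calls. Of the AtSMOS1 peaks inside it, the farthest was the downstream peak of EXL3, 1338 bp from the gene in replicate 1 and 1287 bp in replicate 2. Just outside it, a peak lay at EXL3, 2005 and 2024 bp from the gene, with summits at -2308 and -2403. Its fold enrichments of 6.78 and 7.66 exceeded those of every EXL3 peak inside the limit. The nearest gene to it was EXL3 in replicate 1 and AT5G51560 in replicate 2. At EXL5 a peak lay 2024 and 2023 bp beyond the gene end, with fold enrichments of 3.14 and 3.16. It was nearer to Kin3 (AT2G17220) than to EXL5 in both replicates.

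The count of genes was read against all annotated genes. Among the 27444 protein-coding genes, 21.1% had an AtSMOS1 peak within 2 kb in both replicates, as did 5 of the 6 family genes. In replicate 1 it was 6 of 6 genes against 24.0%, and in replicate 2 it was 5 of 6 against 30.3%. Counting each peak for its nearest gene alone left the same 5 genes, against 10.6% of all genes. The 5 genes each had at least 2 AtSMOS1 peaks in both replicates, which held for 4.78% of all genes. Peaks of both proteins in both replicates were found at 1 of the 6 genes, EXO, against 1.46%. No test was made of these shares, because the genes were chosen with earlier results known.

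The positions of the AtSMOS1 summits at these genes were as follows. Of the 17 replicate 1 peaks at the 6 genes, 7 had their summit upstream, 2 in the 5′ UTR, 1 in the coding sequence, 3 in the 3′ UTR and 4 downstream. Of the 13 replicate 2 peaks, 5 were upstream, 2 in the 5′ UTR, none in the coding sequence, 2 in the 3′ UTR and 4 downstream. A summit within 1 kb upstream of the TSS in both replicates was found at EXO, EXL1, EXL2 and EXL3, 4 of 6 genes against 6.48% of all genes. With a promoter of 500 bp, EXO and EXL1 were left, and with the midpoint of the peak in place of the summit, EXL1 and EXL3. EXO, EXL1 and EXL2 had in both replicates a summit upstream within 2 kb and another within 500 bp of the transcript end, 3 of 6 against 1.30%. That combination was defined after the positions had been seen. Of the 6 input summits at these genes, 4 lay in coding sequences. Over the whole lists, 2.39% and 2.88% of AtSMOS1 summits and 42.8% of input summits lay in a coding sequence. The ChIP lists were called against the input, so these shares are not independent of each other. An input summit inside the gene was found for 4 of the 6 genes, EXL1, EXL2, EXL4 and EXL5, against 8.88% of all genes.

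AtSMOS1 positions recurred between replicates at these genes. Of the 17 replicate 1 peaks, 16 overlapped a replicate 2 peak, or 9 where 50% of both peaks had to be shared, and all 13 replicate 2 peaks overlapped a replicate 1 peak. Over the whole lists, the shares were 81.1% and 61.1%. Merged over the replicates, the peaks formed 14 sites, of which 13 were in both lists. The distance between the closest summits of each site was 9 to 272 bp, with a median of 72 bp. Over the whole lists, every overlapping pair was counted and the median was 50 bp, so these medians are not like measures. The ratio of replicate 2 to replicate 1 fold enrichment was taken from the highest peak of each replicate at a site. It was 0.81 to 1.27 with a median of 0.94, against a median of 0.98 for all pairs. At the EXL2 upstream site, the distance used the replicate 1 summit at -776 and the ratio the one at -1166. Of the 13 sites, 5 were higher in replicate 2.

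**Figure D3:**
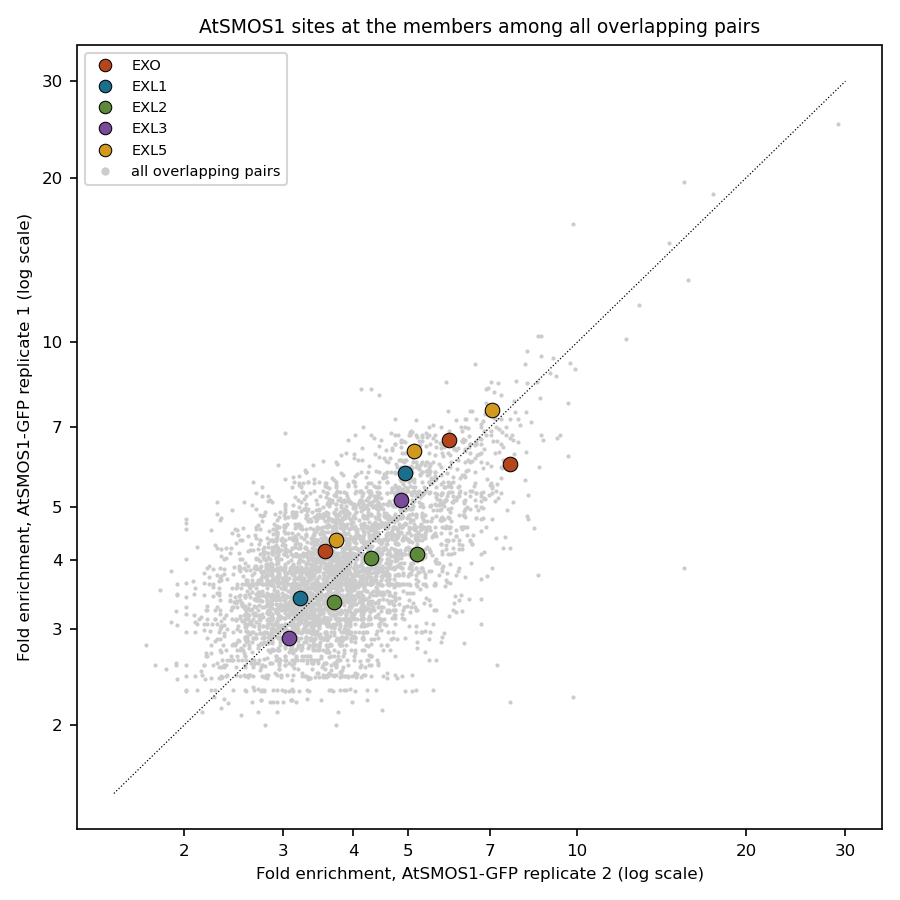
Fold enrichment in AtSMOS1-GFP replicate 1 (vertical, log scale) and replicate 2 (horizontal, log scale). Large points are the 13 sites of the 5 genes found in both replicates, with the higher peak where a replicate split a site, and small grey points are all overlapping pairs. The dotted line marks equal values. The 13 sites lie within the cloud, with ratios of 0.81 to 1.27.

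The highest AtSMOS1 fold enrichment within 2 kb of each gene ordered the family. EXL5 had a mean of 7.29 ± 0.34, EXO 7.12 ± 0.68, EXL1 5.36 ± 0.59, EXL3 5.01 ± 0.20 and EXL2 4.65 ± 0.77 (SD, n = 2 each). The value of EXO came from the distal site in replicate 1 and the TSS site in replicate 2. Taken alone, its TSS site had a mean of 6.81 ± 1.13 and its distal site 6.28 ± 0.52. EXL4 had 3.20 in replicate 1 and no peak in replicate 2. Among these neighbours, EXL5 and EXO, EXL1 and EXL3, and EXL3 and EXL2 each differed by less than the larger of their SDs. EXL5 and EXO were above EXL1, EXL3 and EXL2 in both replicates without overlap. The place of EXL3 depended on the 2 kb limit. The peak just outside it (6.78 in replicate 1 and 7.66 in replicate 2) exceeded the EXO values of both replicates. In replicate 2 that peak was nearer to AT5G51560 than to EXL3. Inside the limit, the EXL3 value came from the peak nearer to LPA2, and the upstream EXL3 site had a mean of 2.98 ± 0.13. Among all genes with an AtSMOS1 peak within 2 kb, EXO was at percentile 97.3 in replicate 1 and 99.2 in replicate 2, and EXL5 was at 99.1 and 98.5. EXL2 was at 60.4 in replicate 1 and 90.2 in replicate 2, so its place depended on the replicate. EXL4 was at 20.7 in replicate 1. The medians of all such genes were 3.84 in replicate 1 and 3.53 in replicate 2.

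**Figure D4:**
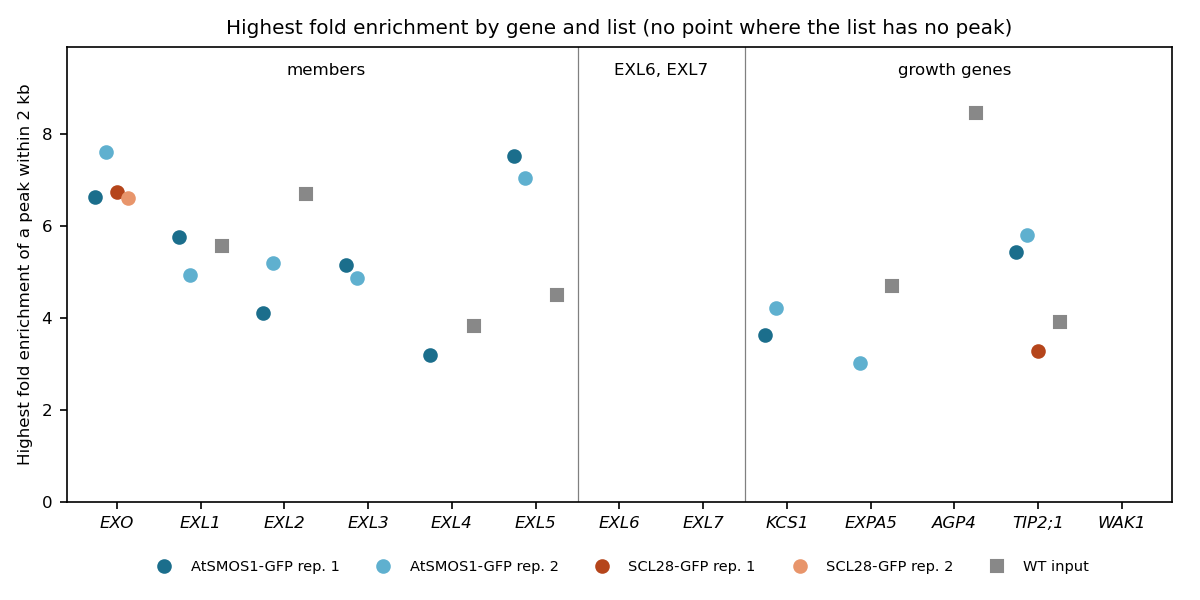
Highest fold enrichment of a peak within 2 kb of each gene in each of the 5 lists, with 1 point per list and no point where the list has no peak. EXO and EXL5 hold the highest AtSMOS1 points, between 6.64 and 7.60, EXO alone among the 6 genes has SCL28 points, and EXL6, EXL7 and WAK1 have none.

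EXL6 and EXL7, the further family genes, had no peak of any list within 2 kb, and their nearest AtSMOS1 peaks were at least 16038 bp away. Transcripts of KCS1 (a wax and lipid elongase), EXPA5 (an expansin), AGP4 (an arabinogalactan protein), TIP2;1 (a vacuolar aquaporin) and WAK1 (a wall-associated kinase) are known to depend on EXO. Of these 5 genes, KCS1 and TIP2;1 had AtSMOS1 peaks in both replicates, 2 of 5 against 20.7% of all genes. The highest were 3.62 and 4.21 at KCS1, and 5.43 and 5.80 at TIP2;1, upstream of the TSS at -666 and -694. TIP2;1 also had an SCL28 peak, at -766 (3.28), in replicate 1 alone. EXPA5 had an AtSMOS1 peak in replicate 2 alone (3.02), and AGP4 and WAK1 had none within 2 kb. Input peaks lay at EXPA5 (4.69), AGP4 (8.46) and TIP2;1 (3.92), 3 of 5 against 26.7% of all genes.

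The genes whose highest fold enrichments over the 5 lists were nearest to those of EXO were TMK1 (AT1G66150), AR781 (AT2G26530) and FBS3 (AT4G05010), with Euclidean distances of 0.11, 0.27 and 0.27 on the log2 scale. A gene without a peak was set at 0 on that scale. TMK1, a receptor-like kinase of auxin signalling, had 6.96 and 7.26 for AtSMOS1, 6.99 and 6.44 for SCL28 and no input peak, against 6.64 and 7.60, 6.75 and 6.62 and no input peak at EXO.

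Other short elements were searched in the same 200-bp windows on both strands. GGATNC, the core of the 12-bp motif, lay in 3 of 17 AtSMOS1 windows of replicate 1, at EXO within that motif, at EXL3 and at EXL4, and in 0 of 13 windows of replicate 2. It was found in 16.7% and 16.3% of all AtSMOS1 windows, 65.6% and 75.8% of SCL28 windows and 18.7% of input windows. This core is part of the motif derived from these data, so its shares are not independent support either. The G-box lay in 1 of 17 windows of replicate 1, at EXL2. In replicate 2 it lay in 2 of 13, at EXL2 and in the distal region of EXO, at -1334. The shares of all AtSMOS1 windows were 14.0% and 15.0%. The brassinosteroid response elements CGTGTG and CGTGCG were in no AtSMOS1 window of the 6 genes, against 10.8% and 11.6% of all AtSMOS1 windows. The phosphate response element GNATATNC was in 1, at EXL4 in replicate 1, against 4.82% and 5.19% of all. In the 300 bp from 250 bp before to 50 bp after the TSS, none of the 6 genes held any of these elements or the motif, even with 1 mismatch. Over 27444 protein-coding genes, the shares were 0.226% for the motif, 5.78% with 1 mismatch, 19.3% for GGATNC, 7.68% for CACGTG, 8.19% for the brassinosteroid elements and 6.25% for GNATATNC.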

How the data were processed

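Chromatin of AtSMOS1-GFP and SCL28-GFP seedlings was sequenced after ChIP, beside wild-type input. The authors trimmed single-end reads (Trimmomatic 0.38), aligned them to TAIR10 (Bowtie2 2.3.5 in the submitters' processing notes) and called peaks per sample with MACS2 2.2.7.1 at a q value cutoff of 0.05. Duplicate reads were reduced to 1 per position, and the sources disagree on fragment size and on sharp or broad peaks. The study's reporting summary gives the input as the control for the called samples, so the ChIP and input lists are not independent. The control given for the input list is not given in the sources used here.

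The fold enrichment is a ratio computed by the authors' caller over its local background, so weak peaks depend on that estimate and values of different lists are not on a shared depth scale. The −log10 p and −log10 q values were deposited by the authors for each peak, and the deposited score, a multiple of the −log10 q, was not used.

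Samples were grouped as labelled. Peaks of the organelle genomes were left out. A peak was at a gene when any base lay within 2 kb of the gene, and peaks overlapped when they shared 1 bp. Positions were set against 33056 genes of the TAIR10.1 RefSeq annotation, without pseudogenes, whose chromosomes 1 to 5 have the TAIR10 positions. Sequences are from RefSeq. Named genes are the 6 family genes, EXL6, EXL7, 5 growth genes, the genes used to check the labels, genes nearer to a peak and the 3 genes most like EXO. Members and lists were chosen with earlier results of these data known, and no test was made. Scripts used python 3.11.15, pandas 2.3.3 and Biopython 1.88. The distance and overlap functions gave the right answer for all 300 pairs planted in simulated data, and all 100 planted motifs were found. Alternatives were other distances, the summit or midpoint, stricter peaks, input peaks left out, the nearest gene, a larger overlap and each replicate left out.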

Additional observations from a re-analysis of the deposited data

How the results depend on the processing

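No paired analysis was possible because no result comes from a test, so a replicate block has nothing to be fitted in. Which genes had an AtSMOS1 peak in both replicates (EXO, EXL1, EXL2, EXL3 and EXL5) was the same with a window of 1 kb, the summit within 2 kb, a −log10 q of at least 5 and the nearest gene, and EXL4 joined them at 5 kb or with AtSMOS1-GFP replicate 2 left out. Each AtSMOS1 peak that added EXL4 at 5 kb was nearer to another gene, and no share of all genes was counted at 5 kb. Leaving out peaks that overlap an input peak removed none at the genes of the family and is no check. The SCL28 peak at EXO was found under every other alternative run for it.

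These counts moved by more than 1.5 times. With a −log10 q of at least 5, 10 AtSMOS1 replicate 1 peaks remained of 17, and all 10 overlapped a replicate 2 peak. With an overlap of 50% of both peaks, 9 of the 17 had a partner in replicate 2, and the SCL28 peak of EXO in replicate 1 had 0 AtSMOS1 partners, against 1 in replicate 2. Of the 4 genes with an AtSMOS1 summit within 1 kb upstream, 2 were left with a promoter of 500 bp (EXO and EXL1) and 2 with the midpoint of the peak (EXL1 and EXL3). The motif lay within 100 bp of an AtSMOS1 summit at 1 gene in replicate 1 and 0 in replicate 2, and within a whole peak at 1 gene in each. Searches of whole peaks, the replicate 2 motif search, the promoter counts with a replicate left out and the 50% overlap in replicate 2 were chosen after seeing the data. With 1 AtSMOS1 replicate left out, the highest fold enrichment within 2 kb was 6.64 to 7.60 at EXO, 4.94 to 5.77 at EXL1, 4.11 to 5.20 at EXL2, 4.87 to 5.15 at EXL3 and 7.05 to 7.53 at EXL5. With 2 replicates and no read counts, differences between peaks of like fold enrichment could not be resolved.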
